A study of Saccharomyces cerevisiae with 10 samples.

Results

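Among 4611 yeast deletion strains measured in a pool, 7 lack a gene of the Rim101 alkaline pH pathway: rim8Δ, rim9Δ, rim13Δ, rim20Δ, rim21Δ, rim101Δ and dfg16Δ. The genes were chosen by symbol, and the set was selected on log ratios of both comparisons that were already known from these arrays. The strains' own log ratios, and their calls in the fit across all strains, are therefore given as a description. They are not a test of the pathway. All 7 were measured with both barcode tags, the short sequences that stand in place of each deleted gene.

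In Saccharomyces cerevisiae the pathway turns an alkaline signal at the cell surface into the cleavage of a transcription factor. Rim21, Dfg16 and Rim9 are membrane proteins of the sensing complex at the plasma membrane, and Rim8 is an arrestin-like adaptor that links the sensor to the ESCRT machinery, the membrane-sculpting complexes better known for sorting ubiquitinated cargo into multivesicular bodies. On the ESCRT-III polymer the scaffold Rim20 presents Rim101 to the calpain-like protease Rim13, which removes the C-terminal tail of Rim101. Cleaved Rim101, a zinc finger protein, acts mainly as a repressor, among others of NRG1, and the response supports growth at high pH and salt.

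The pool held viable haploid strains with a single deletion each, grown in YPD, and every comparison was made between a pair of portions of one culture. On 4 arrays an acute portion that received 0.4 mM hydrogen peroxide for 1 h was set against an untreated portion. On 6 arrays an adapted portion, given 0.1 mM for 45 min as a mild pretreatment and then 0.4 mM for 1 h, was set against an acute portion that had a sham step before the same high dose. All portions then recovered for 5 h, so a ratio takes in survival and regrowth together.

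A log ratio under 0 marks a strain that became rarer relative to the pool. That is in the acute portion against the untreated one, or in the adapted against the acute one. The authors' median correction centred the ratios near 0, so a value compares a strain with the middle of the pool. It does not give an absolute change in abundance. The values are read as natural logs, although the sources used here give no base, and their overall direction rests on an order found in the study's own tables. The treated portion of each pair, the adapted one in the second set, always carried Cy5. Dye and treatment therefore cannot be told apart within a comparison. Agreement between arrays was modest: correlations across strains ran from −0.0476 to 0.530 between acute arrays and from −0.209 to 0.574 between adapted arrays. The tags of a strain correlated between 0.0567 and 0.224 on single arrays, over 4478 strains with both. The spread of one strain over its arrays had a median SD of 0.225 in the acute set and 0.229 in the adapted set.

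In the acute comparison all 7 pathway strains had a mean below 0, where 54.8% of all strains did. Their median was −0.50, against −0.015 over all strains. In the adapted comparison all 7 had a mean above 0, where 45.5% of all strains did. Their median was 0.46, against −0.01 over all strains. The strains without Rim8, Rim20, Rim101 or Rim13 lay close together in both. The strain without Rim21 lay nearer 0, and those without Rim9 or Dfg16 nearest.

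RIM8 encodes the adaptor between sensor and ESCRT. Its deletion strain had acute log ratios of −0.44, −0.76, −0.96 and −0.49 on replicates 1 to 4, with a mean of −0.66 ± 0.12 (SE, n = 4). All 4 arrays were below 0. Read as natural logs, the mean corresponds to 0.516 times the untreated abundance, relative to the middle of the pool. This was the strongest loss in the pathway and rank 105 from the bottom of 4611 strains. In the adapted comparison the strain had 0.58, 0.42, 0.26, 0.35, 0.64 and 0.68 on replicates 1 to 6, with a mean of 0.49 ± 0.08 (SE, n = 6). All 6 arrays were above 0. On the same relative scale the mean stands for 1.63 times the abundance in the acute portion, rank 17 from the top.

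RIM20 encodes the scaffold that binds both Rim101 and the ESCRT-III subunit Snf7. The rim20Δ strain had −0.66, −0.44, −0.67 and −0.36 on the acute arrays, a mean of −0.53 ± 0.09 (SE, n = 4). No acute array came near 0, and the mean ratio was 0.587. Its adapted log ratios were 0.33, 0.42, 0.17, 0.46, 0.76 and 0.70, a mean of 0.47 ± 0.09 (SE, n = 6). All were above 0, with replicate 3 the lowest, and the mean ratio was 1.61.

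RIM13 encodes the protease. The rim13Δ strain had −0.72, −0.07, −1.08 and −0.13 on the acute arrays, a mean of −0.50 ± 0.19 (SE, n = 4). The loss was deep on replicates 1 and 3 and slight on replicates 2 and 4, the widest scatter among the pathway strains with all acute arrays below 0. With pretreatment it had 0.67, 0.51, 0.03, 0.11, 0.65 and 0.76, a mean of 0.46 ± 0.11 (SE, n = 6). Replicates 3 and 4 were close to 0 and the other 4 at or above 0.51.

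RIM101 encodes the transcription factor itself. The rim101Δ strain had −0.61, −0.41, −0.72 and −0.36 on the acute arrays, a mean of −0.52 ± 0.10 (SE, n = 4), or a ratio of 0.593. Its adapted log ratios were 0.53, 0.25, 0.33, 0.34, 0.88 and 0.42, a mean of 0.46 ± 0.09 (SE, n = 6), or a ratio of 1.58. It followed rim20Δ closely on the acute arrays, where rim20Δ minus rim101Δ averaged −0.01 with an SD of 0.043.

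The sensing complex was less even. RIM21 encodes the pH sensor, and its deletion strain had −0.15, −0.34, −0.49 and −0.23 on the acute arrays, a mean of −0.30 ± 0.09 (SE, n = 4). On the adapted arrays it had 0.25, 0.31, 0.25, 0.13, 0.54 and 0.01, a mean of 0.25 ± 0.08 (SE, n = 6). Every array had the same sign as for the Rim8, Rim20, Rim13 and Rim101 strains, and the means were nearer 0.

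RIM9 encodes a small membrane protein of the same complex. The rim9Δ strain had −0.89, −0.01, −0.05 and 0.17 on the acute arrays, a mean of −0.19 ± 0.19 (SE, n = 4), which rests on replicate 1. Adapted arrays gave −0.07, −0.07, 0.21, −0.16, 0.58 and 0.29, a mean of 0.13 ± 0.11 (SE, n = 6), with 3 of 6 arrays above 0. Neither mean lay further from 0 than 2 SE.

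DFG16 encodes the partner of Rim21 in the plasma membrane. The dfg16Δ strain had 0.02, −0.21, 0.08 and −0.03 on the acute arrays, a mean of −0.03 ± 0.09 (SE, n = 4). On the adapted arrays it had 0.06, 0.14, 0.04, −0.28, −0.21 and 0.28, a mean of 0.00 ± 0.09 (SE, n = 6). Its signs were mixed in both sets, and its ranks of 2062 from the bottom and 2039 from the top lay near the middle of the pool.

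**Figure D1:**
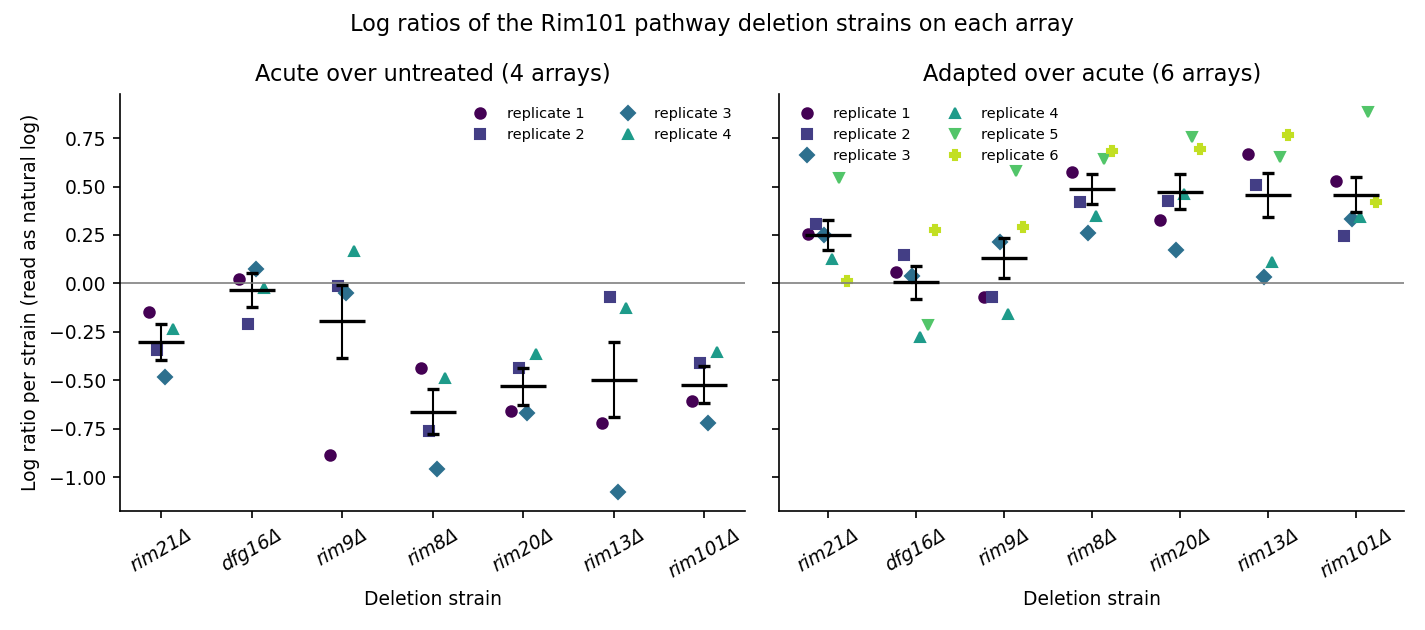
Log ratio (read as natural log) of the 7 Rim101 pathway strains, 1 point per array, for acute over untreated (4 arrays) and adapted over acute (6 arrays), with the mean as a line and its SE as an error bar. The Rim8, Rim20, Rim13, Rim101 and Rim21 strains were below 0 on all 4 acute arrays and above 0 on all 6 adapted arrays, whereas the Rim9 and Dfg16 strains had mixed signs.

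The order of the means was the same in both comparisons, with RIM8 furthest from 0, then RIM20, RIM101, RIM13, RIM21, RIM9 and DFG16. No step between neighbours in this order exceeded its spread over arrays. The step between rim13Δ and rim21Δ, for example, averaged −0.20 with an SD of 0.450 on the acute arrays and 0.21 with an SD of 0.341 on the adapted arrays. The order is thus a ranking of means, and adjacent strains could not be told apart.

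In the fit across all strains (limma, unadjusted p of 0.005), rim8Δ, rim20Δ and rim101Δ were past the threshold below 0 in the acute comparison, 3 of 7, where 2.67% of all strains were called below 0. In the adapted comparison rim8Δ, rim20Δ, rim101Δ and rim13Δ were past it above 0, 4 of 7, where 1.26% of all strains were called above 0. None of the 7 was called after Benjamini-Hochberg adjustment (limma), which called 0.0651% of all strains below 0 in the acute comparison and 0.0217% above 0 in the adapted one, and at an unadjusted p of 0.05 the counts were 5 below 0 in the acute comparison (6.92% of all strains) and 5 above 0 in the adapted one (4.47%). With acute replicate 1 left out, 1 strain was past it below 0, and with replicate 2, 3 or 4 left out 0 were, as with no moderation of the spread. By the second tag alone the adapted count was 1. Since the choice of strains used these values, nothing is read from the counts.

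The gain of each strain with pretreatment can be set against its acute loss. The adaptive contrast is the mean of acute over adapted minus the mean of acute over untreated, and it is above 0 where the gain with pretreatment falls short of the acute loss. Its values were 0.17 ± 0.13 for rim8Δ, 0.06 ± 0.13 for rim20Δ, 0.06 ± 0.14 for rim101Δ, 0.04 ± 0.22 for rim13Δ and 0.05 ± 0.12 for rim21Δ (SE, 10 arrays). No value exceeded 2 SE. For rim8Δ the range of 2 SE either side ran from −0.0927 to 0.441. As a share of the loss, the gain was 73.7% for rim8Δ, 88.9% for rim20Δ, 87.7% for rim101Δ, 91.7% for rim13Δ and 82.4% for rim21Δ. The contrast was 0.06 ± 0.21 for rim9Δ and 0.03 ± 0.13 for dfg16Δ. Where arrays were left out in turn, the contrast changed sign for rim13Δ, rim9Δ and dfg16Δ. It stayed above 0 for rim8Δ, rim101Δ, rim20Δ and rim21Δ, with lowest values of 0.0016 for rim20Δ and 0.0024 for rim21Δ. A fit with the replicate number as a block put 4 of the 7 below 0, but these numbers do not pair acute with adapted arrays. None of the 7 was past the threshold in the contrast (limma), where 1.54% of all strains were called above 0 and 0.173% below 0. At an unadjusted p of 0.05 the count was also 0, where 4.01% of all strains were above 0 and 1.54% below 0. The contrast is built from the log ratios used to select the strains, so its values and counts are a description too.

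**Figure D2:**
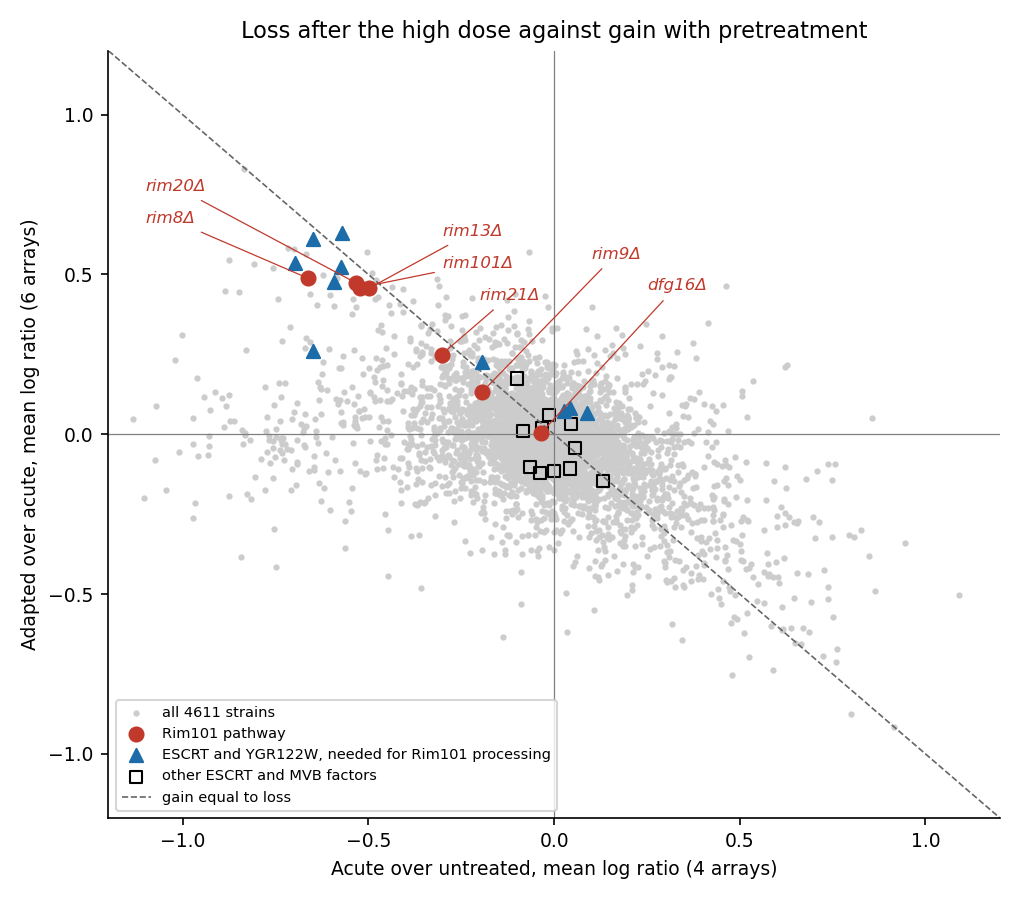
Mean acute over untreated log ratio (4 arrays, horizontal) against mean adapted over acute log ratio (6 arrays, vertical) for 4611 strains, of which 4 lie outside the axes. The dashed line marks a gain equal to the loss. The pathway strains range along the upper left side, with rim8Δ at −0.66 and 0.49 and dfg16Δ near 0, and 6 of the 10 strains of the ESCRT list also lie at an acute mean of −0.57 or lower.

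Each strain was read through 2 tags at separate places of the array, and tag values are given here before quantile normalization, with their SD over arrays. For rim8Δ they gave −0.67 ± 0.345 and −0.64 ± 0.309 on the acute arrays (SD, n = 4), and 0.43 ± 0.155 and 0.49 ± 0.188 on the adapted arrays (SD, n = 6). For rim101Δ the tags gave −0.48 ± 0.157 and −0.50 ± 0.0664 on the acute arrays, and 0.47 ± 0.140 and 0.41 ± 0.305 on the adapted arrays. In both strains the tags differed by less than their spread over arrays.

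The rim20Δ tags gave −0.38 ± 0.187 and −0.61 ± 0.231 on the acute arrays, and 0.44 ± 0.143 and 0.50 ± 0.523 on the adapted arrays. In rim13Δ the first tag had −0.50 ± 0.0851 on the acute arrays. Its second tag scattered far more, with −0.45, 0.43, −1.39 and 0.21, a mean of −0.30 ± 0.817 (SD, n = 4). The scatter of the acute values of rim13Δ thus lay mainly in the second tag. On the adapted arrays its tags had 0.54 ± 0.433 and 0.27 ± 0.259.

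The rim21Δ tags disagreed. The first tag had −0.62 ± 0.184 on the acute arrays and 0.43 ± 0.192 on the adapted arrays, with 4 of 4 below 0 and 6 of 6 above 0. The second had 0.02 ± 0.142 on the acute arrays and 0.06 ± 0.216 on the adapted arrays, with 2 of 4 below 0 and 4 of 6 above 0. By its first tag rim21Δ lay at the level of rim8Δ, and by its second at that of dfg16Δ, so its mean is an average of 2 unlike readings. Which tag reported the strain better was not tested.

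The rim9Δ tags gave 0.07 ± 0.498 and −0.33 ± 0.451 on the acute arrays, and 0.07 ± 0.464 and 0.18 ± 0.209 on the adapted arrays. The dfg16Δ tags gave −0.02 ± 0.125 and −0.09 ± 0.351 on the acute arrays, and −0.05 ± 0.172 and 0.09 ± 0.255 on the adapted arrays. Neither strain had a tag whose mean stood clear of its spread. Counted over all strains of the pathway and all arrays, acute values were below 0 in 23 of 28 readings by the first tag and 21 of 28 by the second. Adapted values were above 0 in 34 of 42 and 35 of 42 readings by the first and second tag. The readings share arrays and strains and are not replicates, and the strains were selected on these values. Among all strains, the mean over tags and arrays was below 0 in 54.8% (acute) and above 0 in 45.5% (adapted).

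**Figure D3:**
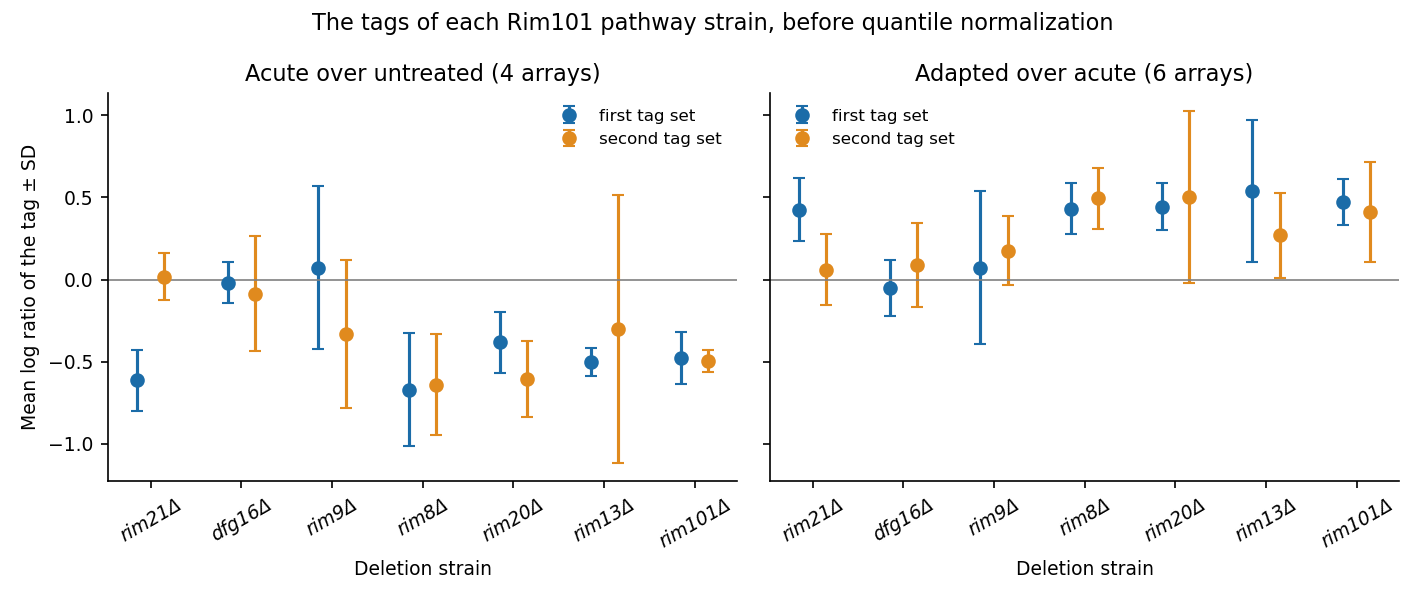
Mean log ratio (read as natural log) of each Rim101 pathway strain by its first and second tag, before quantile normalization, with the SD over arrays (4 for acute over untreated, 6 for adapted over acute). The tags of rim8Δ and rim101Δ lie together, whereas those of rim21Δ lie apart, at −0.62 and 0.02 on the acute arrays.

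The strains were then compared array by array. In the acute set the median of the 7 was −0.608, −0.344, −0.669 and −0.235 for replicates 1 to 4. In the adapted set it was 0.326, 0.307, 0.213, 0.128, 0.641 and 0.420 for replicates 1 to 6. Every array thus had the sign of its set, with acute replicate 4 and adapted replicate 4 nearest 0. Over the 10 arrays each strain was set against the mean of the other 6. The correlation was 0.966 for rim20Δ, 0.966 for rim101Δ, 0.936 for rim8Δ, 0.903 for rim13Δ and 0.850 for rim21Δ. Of the 4604 strains outside the pathway, 3 had a higher correlation with the same mean than rim20Δ, 7 than rim101Δ and 20 than rim8Δ. For rim9Δ the correlation was 0.528 and for dfg16Δ 0.0328, and 608 and 2144 strains lay higher. The points share libraries, and the opposite means of the 2 array sets carry much of these correlations. The 7 strains were also selected on log ratios of these arrays. The shared signs, correlations and ranks are therefore a description and no evidence that the pathway acts as a unit.

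Of named strains outside the pathway, the 5 with profiles most like the mean of the 7 over the 10 arrays lacked RPL41B (r = 0.986), HFA1 (0.972), YBP1 (0.970), OCT1 (0.969) and RAD55 (0.966). RPL41B encodes a cytosolic ribosomal protein, HFA1 the mitochondrial acetyl-CoA carboxylase, YBP1 a partner of the peroxide sensor system of Yap1, OCT1 a mitochondrial peptidase and RAD55 a recombination factor. Likeness of profile ignores level, and the levels differed: the acute and adapted means were −0.53 and 0.47 for rad55Δ, −0.64 and 0.40 for hfa1Δ, and −0.21 and 0.23 for rpl41bΔ. For ybp1Δ they were −0.72 and 0.16, and for oct1Δ −1.30 and −0.02, so in these a deeper loss went with little or no gain.

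Cleavage of Rim101 in yeast also needs ESCRT-I, ESCRT-II and the ESCRT-III subunits Vps20 and Snf7, and YGR122W has been tied to the same step. All 10 strains of this list were measured. In the acute comparison 3 of 10 fell, stp22Δ, vps36Δ and vps20Δ (limma, unadjusted p of 0.005, background 2.67%). Of the 10, 7 had a mean below 0, where 54.8% of all strains did. The list's median was −0.57, against −0.015 over all strains. In the adapted comparison 5 of 10 rose, the same 3, vps25Δ and snf7Δ (limma, unadjusted p of 0.005, background 1.26%). All 10 had a mean above 0, where 45.5% of all strains did. The median was 0.37, against −0.01 over all strains. None passed at an adjusted p of 0.05, and at an unadjusted p of 0.05 the counts were 5 below 0 in the acute comparison (background 6.92%) and 5 above 0 in the adapted one (background 4.47%). By the first tag alone 1 fell and 2 rose. The list was written with results of these arrays known and is no independent evidence of direction.

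STP22 encodes the ubiquitin-binding ESCRT-I subunit also called Vps23. The stp22Δ strain had −0.60, −0.83, −0.73 and −0.44 on the acute arrays and fell by 0.65 (SE 0.10, adjusted p = 0.0786, limma). It had 0.61, 0.37, 0.26, 0.46, 0.97 and 1.00 on the adapted arrays and rose by 0.61 (SE 0.11, adjusted p = 0.0879, limma). These values overlapped those of rim8Δ in both sets.

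VPS36 encodes the ESCRT-II subunit that binds membrane lipid and ubiquitin. The vps36Δ strain had −0.62, −0.54, −0.63 and −0.49 on the acute arrays and fell by 0.57 (SE 0.08, adjusted p = 0.0776, limma). On the adapted arrays it had 0.38, 0.69, 0.84, 0.50, 1.15 and 0.22 and rose by 0.63 (SE 0.12, adjusted p = 0.0879, limma). The acute arrays were close to one another and the adapted arrays more spread out.

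VPS20 encodes the subunit that nucleates the ESCRT-III polymer. The vps20Δ strain had −0.61, −0.74, −0.98 and −0.45 on the acute arrays and fell by 0.70 (SE 0.11, adjusted p = 0.0841, limma). It had 0.66, 0.87, 0.29, 0.32, 0.57 and 0.52 on the adapted arrays and rose by 0.54 (SE 0.09, adjusted p = 0.0761, limma). All 10 arrays had the sign of their set.

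SNF7 encodes the main subunit of that polymer and VPS25 a core subunit of ESCRT-II. The snf7Δ strain rose by 0.52 in the adapted comparison (SE 0.08, adjusted p = 0.0761, limma), and its acute mean of −0.57 (SE 0.17, adjusted p = 0.24) did not pass the threshold. The vps25Δ strain rose by 0.48 in the adapted comparison (SE 0.10, adjusted p = 0.115, limma), and its acute mean of −0.59 (SE 0.19, adjusted p = 0.275) did not pass. In both, acute values ran unevenly, with −1.13, −0.55, −0.14 and −0.47 for snf7Δ and −1.23, −0.63, −0.11 and −0.40 for vps25Δ. All were below 0.

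The other members of the list did not pass in either comparison. The ygr122wΔ strain had an acute mean of −0.65 (SE 0.26, adjusted p = 0.409, limma) with −1.06, 0.38, −1.03 and −0.88 on the 4 arrays, so that replicate 2 ran against the rest. Its adapted mean was 0.26 (SE 0.15). The srn2Δ strain, which lacks another ESCRT-I subunit, had −0.19 (SE 0.09) and 0.22 (SE 0.12). The vps28Δ, mvb12Δ and snf8Δ strains, of ESCRT-I and ESCRT-II, had acute means of 0.04, 0.03 and 0.09 and adapted means of 0.08, 0.07 and 0.07. Strains of one complex were thus not alike, with stp22Δ far from 0 and vps28Δ near it, and vps36Δ and vps25Δ far from it and snf8Δ near it.

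Over the 10 arrays the correlation with the mean of the 7 pathway strains was 0.966 for stp22Δ, 0.944 for vps20Δ, 0.895 for vps36Δ, 0.880 for snf7Δ and 0.807 for vps25Δ. Of all strains, 9 had a higher value than stp22Δ, 23 than vps20Δ, 82 than vps36Δ, 95 than snf7Δ and 178 than vps25Δ. These counts take in the pathway strains themselves, which are part of that mean. As above, the opposite means of the 2 array sets carry much of these values. Lower ones were found for srn2Δ (0.697), ygr122wΔ (0.656), mvb12Δ (0.290), vps28Δ (0.184) and snf8Δ (−0.118). The contrast of gain and loss lay within 2 SE of 0 for the strains that moved. It was 0.04 ± 0.16 for stp22Δ, −0.06 ± 0.17 for vps36Δ, 0.16 ± 0.14 for vps20Δ, 0.11 ± 0.21 for vps25Δ and 0.05 ± 0.18 for snf7Δ (SE, 10 arrays). The highest of the list was 0.39 ± 0.31 for ygr122wΔ, and none of the list passed there. The list's median contrast was 0.00, against 0.02 over all strains.

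Other ESCRT and multivesicular body factors act in cargo sorting but are not known to be needed for Rim101 cleavage. This list held VPS27 and HSE1 of ESCRT-0, the late ESCRT-III subunits DID4 and VPS24, the disassembly factors VPS4, VTA1, DID2, IST1 and VPS60, the scaffold BRO1 and the ubiquitin hydrolase DOA4. All 11 strains were measured, and 0 passed the threshold in any of the 3 comparisons (limma, unadjusted p of 0.005, background 2.67% below 0 in the acute and 1.26% above 0 in the adapted one). At an unadjusted p of 0.05, 0 of 11 were counted in the acute comparison (background 6.92% below 0) and 1 above 0 in the adapted one (background 4.47%). Their acute means lay between −0.10 and 0.13 with a median of −0.01, and their adapted means between −0.15 and 0.17 with a median of −0.04. The strain at an unadjusted p of 0.05 was vps27Δ, with 0.17 in the adapted comparison (SE 0.07, adjusted p = 0.385, limma) and −0.10 in the acute one. Its profile had a correlation of 0.780 with the mean of the 7 pathway strains, that of bro1Δ 0.441, and those of the other 9 ran from −0.251 to 0.277. The difference between the 2 ESCRT lists was not tested.

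**Figure D4:**
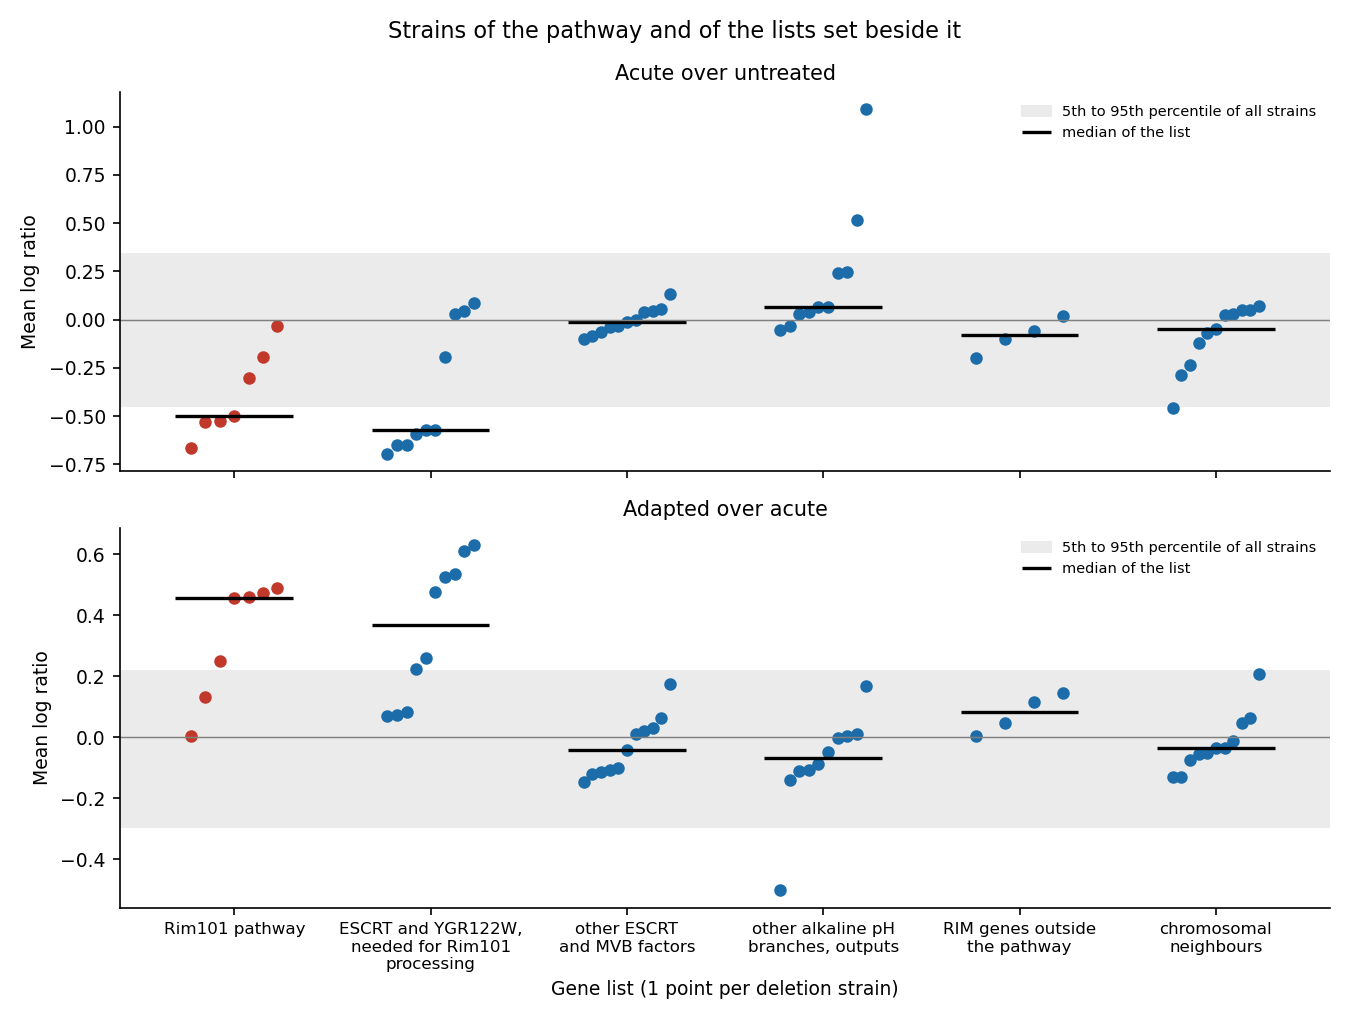
Mean log ratio (read as natural log) of each measured strain in the Rim101 pathway and the 5 lists set beside it, for acute over untreated and adapted over acute, with each list's median as a line and the 5th to the 95th percentile of all strains as a grey band. The pathway (medians −0.50 and 0.46) and the ESCRT list needed for Rim101 cleavage (−0.57 and 0.37) lie away from 0, and the other lists have medians between −0.08 and 0.08.

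Alkaline stress in yeast is also met by calcineurin and Crz1, by the kinase Snf1 and by the phosphate regulators Pho2 and Pho4. Rim101 acts through the genes NRG1 and SMP1, which it represses. Of 14 genes of these branches and outputs, 10 strains were measured. In the acute comparison 1 of 10 rose (limma, unadjusted p of 0.005, background 0.933%) and none fell, with a median of 0.07. The strain was snf1Δ, with 1.09 (SE 0.19, adjusted p = 0.0995), above 0 on 4 of 4 arrays, and the call was lost by either tag alone and without replicate 1, 3 or 4. Its adapted mean was −0.50 (SE 0.16, adjusted p = 0.272, limma), the opposite signs to the pathway strains. At an unadjusted p of 0.05 (background 5.75% above 0), pho2Δ with an acute mean of 0.52 (SE 0.14) and nrg1Δ with 0.24 (SE 0.09) were also counted. The nrg1Δ strain passed the threshold in neither comparison (adjusted p = 0.334 and 0.546, limma). It was above 0 on 4 of 4 acute arrays and below 0 on 6 of 6 adapted arrays, with an adapted mean of −0.11. For smp1Δ, without the other repressed gene, the acute mean was 0.04 with 2 of 4 arrays above 0, and the adapted mean was −0.11 with 4 of 6 arrays above 0. The nrg2Δ strain, which lacks the paralog of NRG1, had means of −0.06 and −0.14. In the adapted comparison none of the 10 passed the threshold (limma, background 1.52% below and 1.26% above 0), with a median of −0.07. At an unadjusted p of 0.05, 1 of 10 was below 0 (background 6.38%).

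Genes that carry a RIM name but lie outside the alkaline pathway were taken as a list by name. Of 5 such genes, RIM1, RIM4, RIM11 and RIM15 were measured, and 0 of 4 passed in any comparison (limma, unadjusted p of 0.005, backgrounds as above). At an unadjusted p of 0.05, 0 of 4 were counted in the acute comparison and 1 above 0 in the adapted one (background 4.47%). Their acute means lay between −0.20 and 0.02, and their adapted means between 0.01 and 0.15. The highest adapted mean was that of rim11Δ, which lacks a kinase of meiotic entry (0.15, adjusted p = 0.447, limma).

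Deletions at the same places of the chromosomes were also looked at: 11 of 14 strains that lack a chromosomal neighbour of a pathway gene were measured. Of these, 1 passed below 0 in the acute comparison (limma, unadjusted p of 0.005, background 2.67%), and none passed in the adapted one (background 1.52% below and 1.26% above 0, and 0 of 11 also at an unadjusted p of 0.05). The strain was aep1Δ, whose gene lies next to RIM9, and it had an acute mean of −0.46 (SE 0.09, adjusted p = 0.108, limma) and an adapted mean of −0.01. Its call was lost when any one acute array was left out and by either tag alone. AEP1 is needed for expression of a mitochondrially encoded ATP synthase subunit. The other neighbours, ARG7, NUP53, YMR155W, MOD5, CAF20, MRX6, MSB3, WSC4, YHL026C and HMS1, had acute means between −0.28 and 0.07 and adapted means between −0.13 and 0.21. The neighbours' medians were −0.05 and −0.04. Whether the deletions of the pathway genes altered their neighbours was not tested.

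Strains past the threshold below 0 in the acute comparison and above 0 in the adapted one numbered 26 of 4611. They made up 21.1% of the 123 strains called below 0 in the acute set and 44.8% of the 58 called above 0 in the adapted set, and the sets share no culture. The 26 held rim8Δ, rim20Δ and rim101Δ from the pathway, stp22Δ, vps20Δ and vps36Δ from the ESCRT list, 19 other named strains and 1 without a name. The pathway strains were selected on these log ratios, and the ESCRT list was written with results of these arrays known. Their presence among the 26 is therefore no independent evidence. Among all 120 other strains called below 0 in the acute set, the adapted median was 0.05 and 70 were above 0. The gains of rim8Δ, rim20Δ and rim101Δ were 0.49, 0.47 and 0.46, and a gain past the threshold was required for a place among the 26.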

How the data were processed

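Tag DNA of pooled deletion strains was hybridized to 10 two-colour arrays from separate cultures: 4 arrays compared acute with untreated portions, and 6 compared adapted with acute portions. The deposited values are natural log ratios per spot as read here (no source used here states the base), made by the authors from scanned spots with median and loess correction. Another base would rescale log ratios and errors and leave every p as it is. Ratios were used without the spot intensities behind them. Precision is limited by how many arrays there are.

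Of 22575 spots, 16850 were measured on every array and 5725 were empty throughout. The platform annotation gave 1 gene symbol for 18794 spots, and 18786 matched a RefSeq gene. This gave 4611 strains, 4147 with a name. Unnamed spots with identical values were merged. Replicate spots had the opposite sign to their main spot up to spot 5375 (3475 spots) and equalled it from spot 5409 on (359 spots, tolerance 1e-09). A further 49 replicate spots equalled a main spot at or before 5400. After the turning described next, the highest spot of a tag lay within 4.44e-16 of the tag's mean. Spots up to 5400 were kept as deposited and all others turned. The overall direction was taken from the order of strains in the study's own result tables, which is no separate check. No source used here says which tag set holds the UPTAG.

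Tags were averaged per strain and array, arrays were quantile normalized within each comparison, and means were tested against 0 (two-sided) on all strains in R 4.3.3 with limma 3.58.1 (lmFit, eBayes). The threshold was an unadjusted p of 0.005, after the study's methods, with Benjamini-Hochberg values beside it. The adaptive contrast used all 10 arrays. The fit was tested on simulated normal data with each strain's SD over all 10 arrays and 50 changed strains per effect size. At an effect of 0.5, 54% of them passed the threshold in the acute comparison and 78% in the adapted one. At 0.25, 6% and 24% passed, so strains with changes of these sizes could be missed. The SD used takes in the difference between the means of the 2 array sets, and noise was drawn independently for each array. The rates therefore do not describe strains with opposite means in the 2 sets. Python 3.11.15 with numpy 2.4.6, pandas 2.3.3 and matplotlib 3.10.9 served for tables and plots. The alternatives were no quantile normalization, single tags, a plain mean over spots, both tags required, another treatment of the spread, a replicate block, adjusted p-values and each array left out.

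The pathway strains and all lists were chosen with earlier results of these data known. Strains named are the 7 pathway strains, list strains past the threshold and up to 2 more per list with the lowest acute p, all measured neighbours, and the 5 strains with the most similar profiles. The vps28Δ, mvb12Δ, snf8Δ, bro1Δ, smp1Δ and nrg2Δ strains, outside this rule, were named after their values were seen. Neighbouring genes come from the RefSeq table of assembly R64. The array's build is not stated there, so no coordinates are printed.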

Additional observations from a re-analysis of the deposited data

Results flagged for a closer look

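In groups of 4 or 6 arrays, 3 of 74 sets of values of the named strains had 1 array set apart from the others (gap over range above Dixon's 95% critical value, which chance passes in about 1 in 20 sets), and none of the 3 was a Rim101 pathway strain. The ygr122wΔ strain had 0.38 on acute replicate 2, against −1.06 to −0.88 on the other 3 (gap over range 0.875). The vps25Δ strain had −0.0283 on adapted replicate 2, against 0.50 to 0.71 on the other 5 (0.712). The mrx6Δ strain, a chromosomal neighbour, had −0.38 on adapted replicate 6, against −0.16 to −0.03 on the other 5 (0.642).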

How the results depend on the processing

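Under the alternatives, 290 values of the 7 pathway strains moved by less than the spread between arrays. The other 4 were those of rim21Δ by single tags: −0.68 by the first and 0.06 by the second in the acute comparison, and 0.44 and 0.06 in the adapted one. The acute value of rim21Δ thus changed sign by its second tag. With arrays left out in turn, the median of the 7 ran from −0.522 to −0.325 (acute), 0.381 to 0.476 (adapted) and 0.0387 to 0.109 (contrast). That of the ESCRT list ran from −0.574 to −0.428 and from 0.308 to 0.434.

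Counts past the threshold moved more, and the cause was not tested. By the first tag alone, all-strain counts were 56 below and 20 above 0 (acute, against 123 and 43), 32 below and 33 above (adapted, against 70 and 58), and 2 below and 42 above (contrast, against 8 and 71), and the ESCRT counts were 1 (acute) and 2 (adapted). By the second tag alone, the contrast gave 45 above and the adapted pathway count was 1. Either tag alone gave 0 neighbours and 0 alkaline response strains in the acute set. With 1 spread shared by all strains, 81 strains were above 0 (acute), 135 below (adapted) and 116 above (contrast), the acute ESCRT count was 6, and the alkaline response count 2 and the neighbours' 0. With no moderation of the spread, the counts were 49 below and 21 above (acute), 44 below (adapted), and 5 below and 44 above (contrast), with 0 pathway strains, 0 neighbours and 0 alkaline response strains (acute) and 3 ESCRT strains (adapted). Without quantile normalization, 0 neighbours were called. With adjusted p-values, 3 strains were below and 0 above 0 (acute), 0 below and 1 above (adapted), and 0 below and 16 above (contrast), and 0 in each list.

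With 1 array left out, counts below and above 0 ran from 66 to 86 and 13 to 42 (acute), 35 to 64 and 40 to 49 (adapted), and 2 to 9 and 49 to 74 (contrast). Pathway counts ran from 0 to 1 (acute, against 3) and 3 to 4 (adapted, against 4), the acute ESCRT count stayed at 3, and the adapted one ran from 4 to 5. The neighbours' count was 0 throughout, and the alkaline response count 0 to 1. The labels' shared replicate numbers do not pair the sets, since the arrays came from separate cultures. Deviations of same-numbered arrays correlated at −0.339, 0.264, −0.169 and −0.236. The highest correlation with another number was 0.339, 0.129, 0.209 and 0.416, so only replicate 2 was closest to its own number. With a replicate block the contrast gave 4 below and 36 above. It changed no call of the 7 pathway strains and put their median contrast at −0.03, against 0.06.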

Other observations

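Beside the pathway and ESCRT strains, the 19 other named strains that were called below 0 in the acute comparison and above 0 in the adapted one included several without DNA maintenance genes. The rad5Δ strain, which lacks a factor of post-replication repair, had −0.85 and 0.45, rad59Δ, without a recombination protein, had −0.60 and 0.44, and top1Δ, without topoisomerase I, had −0.67 and 0.56. Genes of mitochondrial metabolism were also among them, with −0.64 and 0.40 for hfa1Δ and −0.47 and 0.33 for lpd1Δ, which lacks lipoamide dehydrogenase. These strains were named after their values were seen, and whether such genes stand out among the 26 was not tested.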
